A study of Mus musculus with 6 samples.

Results

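The genes of cholesterol and fatty acid synthesis, with the factors that control them, were compared between long-term haematopoietic stem cells (LT-HSCs) lacking c-myc and N-myc and their controls. The set was named by gene: 35 genes of sterol synthesis, fatty acid synthesis, control by the sterol regulatory element binding proteins (SREBPs), and liver X receptor (LXR) signalling with sterol handling. Of these, 34 were measured by a probe set assigned to that gene alone, among 18193 genes measured in this way, and Nr1h2 is not analysed here. Each gene was represented by its probe set with the highest mean over the 6 arrays. LT-HSCs, the marrow cells that keep blood formation going for life, had been sorted as Lin-, Sca1+, CD150+ and CD48- from the bone marrow of mice aged 8 weeks on a mixed background. The double knockout (dKO) mice were MxCre c-myc flox2 N-myc flox2, and the controls were c-myc flox2 N-myc flox2 without MxCre (control replicate 2 is labelled M-Myc f2 in place of N-myc f2). Mice of both groups received pI-pC, a synthetic double-stranded RNA that induces interferon, as 2 daily treatments, the last 3 days before the marrow was taken. The Mx promoter of MxCre responds to interferon in many cell types, so deletion was not limited to stem cells. Each group had 3 arrays, and each array was a separate pool of 3 dKO or 2 control mice.

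Cells make cholesterol from acetyl-CoA through the mevalonate pathway and a long chain of sterol enzymes, and make fatty acids from the same precursor. When membrane sterol is low, the escort protein Scap carries SREBPs from the endoplasmic reticulum to the Golgi, where they are cut and released to activate most genes of both pathways, while Insig proteins hold them back when sterol is plentiful. LXRs sense oxidised sterols and activate genes of cholesterol export and of lipoprotein receptor breakdown. Dividing blood cells need both lipids for new membrane, and sterol export has been studied as a brake on stem cell proliferation.

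Expression is given on the log2 scale of the RMA method, where a difference of 1 is a doubling of signal. Array medians lay between 5.9 and 5.97, and pairs of arrays correlated at 0.974 to 0.981 (Pearson, over probe sets) inside a group and at 0.956 to 0.969 across groups. Myc read 10.4, 10.57 and 10.11 on the control arrays and 7.28, 7.77 and 7.24 on the dKO arrays, and Mycn by its brightest probe set, 1417155_at, read 10.8, 10.87 and 10.76 against 3.4, 3.81 and 3.17. Both fell (limma adjusted p = 0.00137 and 2.34e-05), Mycn by at least 119-fold, since its dKO values lay in the negative control range. A second Mycn probe set, 1425922_a_at, differed by -1.61 (adjusted p = 0.00938) and 1425923_at by -0.08 (0.858). Of 6 LT-HSC markers measured, all lay above the negative control probe sets (highest value 3.92) on every array, but Kit, Hlf and Tek fell and none rose. Their summed level, in units returned from log2 to the linear scale, was 8042 to 8170 on control arrays and 4497 to 6008 on dKO arrays. Of 8 megakaryocyte markers, 4 rose and 1 fell, with sums of 4084 to 4713 against 8986 to 13933. In the remaining lists 1 of 12 macrophage markers rose (sums 441 to 684 against 630 to 716), 0 of 9 granulocyte markers passed limma's test (2 at an unadjusted p under 0.05, sums 922 to 2841 against 378 to 1357), and 1 of 6 T and NK cell markers rose (156 to 321 against 226 to 699). No call was made among 5 B cell markers (1 at an unadjusted p under 0.05, sums 217 to 288 against 255 to 359), of which Ms4a1 stayed in the negative control range on all arrays. Of 5 erythroid markers 1 fell (404 to 475 against 222 to 308), and Hba-a1 stayed in that range on all arrays. Among all 18193 genes, limma's adjusted p was under 0.05 for 8.05% (4.49% higher and 3.56% lower in dKO cells). The unadjusted p was under 0.05 for 4196 of them. The Gapdh 3' minus 5' difference, a sign of RNA quality, was 2.12 to 2.36 on control and 2.39 to 2.47 on dKO arrays. The part of these shifts in the results below was not tested, and in sorted bulk cells fewer cells of a type and less RNA per cell cannot be told apart.

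Most genes of the set did not pass the test. Ebp, a sterol isomerase, rose in dKO cells, and Scd2, a stearoyl-CoA desaturase, and Mylip, the ubiquitin ligase that marks lipoprotein receptors for breakdown, fell. These 3 calls among 34 genes (8.82%) at a limma adjusted p under 0.05 compare with 8.05% of all genes (4.49% higher and 3.56% lower), and with 9.22% of the 15829 genes that had a group mean above the negative controls. The share called was thus near the background, and the count is no result about the set. Its differences ran from -1.27 to 0.73, with a median of -0.02 (-0.13 to 0.07 over the alternatives) against 0.01 over all genes. The median size of the difference, sign left aside, was 0.33 against 0.21 over all genes. The values of the 2 groups did not overlap for 15 genes (44.1%), 8 of them higher and 7 lower in dKO cells, against a background of 30.0% of all genes (15.8% higher and 14.2% lower) and 32.8% of those above the negative controls. For each of these 15 an exact two-sided permutation test gave p = 0.1, the smallest that 3 arrays against 3 allow. Among the 31 genes that did not pass, limma's 95% interval of the difference stayed within a 2-fold change in either direction for 26 and reached beyond it for 5. Centring each array on its median changed the split of the calls from 1 higher and 2 lower to 2 higher and 1 lower.

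**Figure D1:**
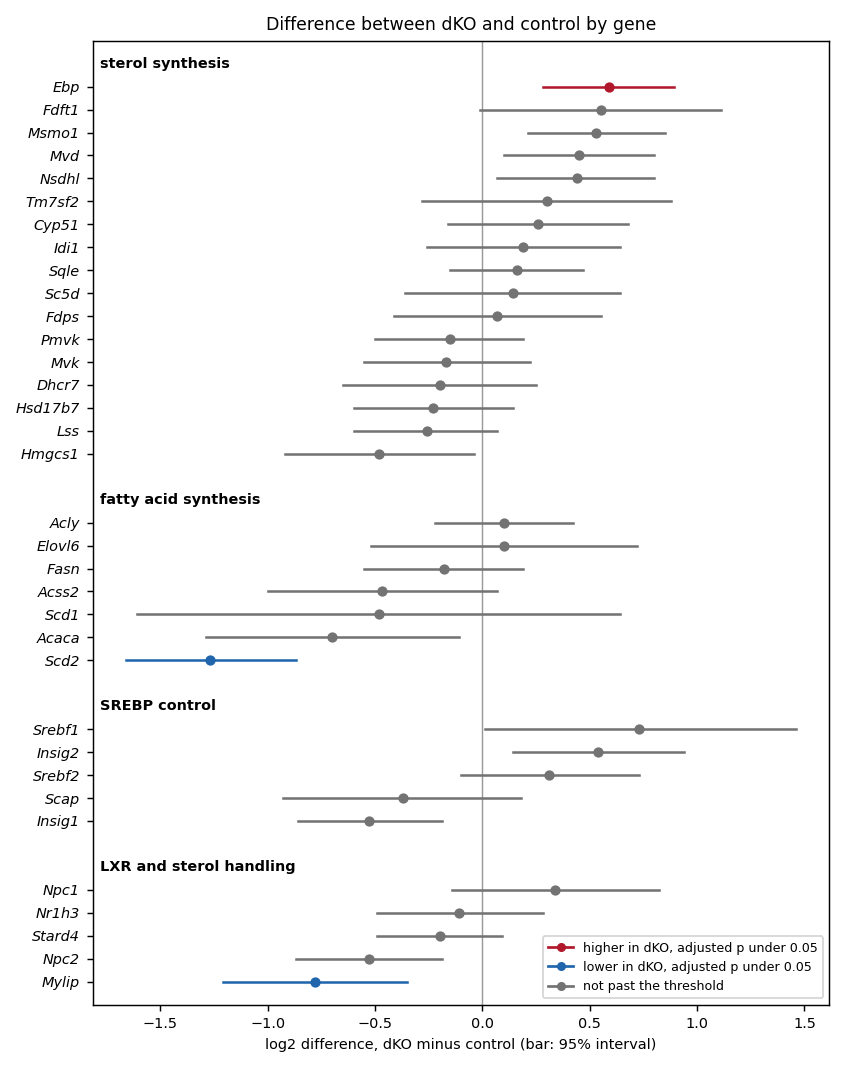
Log2 difference between dKO and control cells (x axis) for the 34 measured genes, grouped by role; points are limma estimates over 3 arrays per group and bars their 95% intervals. Ebp (0.59) is the one gene coloured as higher, and Scd2 (-1.27) and Mylip (-0.78) are coloured as lower; the intervals of the other genes are grey.

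Among sterol synthesis genes 1 of 17 passed the test, upward, where 4.49% of all genes rose. The median size of their differences, sign left aside, was 0.26 against 0.21 over all genes. Of the 17 genes, 11 had a positive and 6 a negative difference, where 9230 of all 18193 genes had a positive one. The median was 0.16, but 0.04 with the mean over each gene's probe sets and 0.1 without control replicate 3. In 6 genes every dKO array was above every control array, and in 1, Lss, every dKO array was below, against the 15.8% and 14.2% of all genes. The 6 were Mvd in the mevalonate part, Fdft1, which commits the pathway to sterols, and Cyp51, Msmo1, Nsdhl and Ebp, which process lanosterol.

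Ebp, measured by 1416667_at, moves a double bond within the sterol ring. It read 7.22, 7.28 and 7.19 on control arrays and 7.84, 7.93 and 7.7 on dKO arrays. The groups did not overlap and both were tight, with means of 7.23 ± 0.04 and 7.82 ± 0.11 (SD, n = 3 each). The rise was 1.5-fold (log2 difference 0.59 ± 0.13 SE, limma adjusted p = 0.0413), and it was lost with any 1 array left out and with the replicate block, over alternatives that gave adjusted p from 0.0177 to 0.121. Msmo1, a methylsterol oxidase that acts before Ebp, read 7.32, 7.23 and 7.06 against 7.68, 7.83 and 7.69, also without overlap. Its difference of 0.53 ± 0.14 SE missed the threshold (adjusted p = 0.0672) and passed it with each array centred on its median (adjusted p = 0.0491), with probe sets above the median level alone (0.0345) or with the representative probe sets alone (0.0455). With the mean over its probe sets the Msmo1 difference was 0.18 (adjusted p = 0.432). A dimmer Msmo1 probe set, 1459627_at, had a difference of -0.16 (adjusted p = 0.733).

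Nsdhl, the dehydrogenase that works with Msmo1, read 7.27, 7.33 and 6.9 on control arrays against 7.61, 7.59 and 7.61. Mvd, the mevalonate diphosphate decarboxylase, read 6.35, 6.63 and 6.61 against 7.13, 6.89 and 6.91. Neither passed the test, with differences of 0.44 and 0.45 and adjusted p of 0.158 and 0.132. Fdft1, squalene synthase, read 7.22, 7.99 and 8.06 on control arrays and 8.3, 8.43 and 8.19 on dKO arrays. Control replicate 1 was the lowest array for Fdft1 and also for Cyp51, the lanosterol demethylase (8.36, 8.91 and 8.86 against 9.02, 8.98 and 8.93). The Fdft1 difference was 0.55 ± 0.24 SE (adjusted p = 0.237) and the Cyp51 difference 0.26 ± 0.18 SE (adjusted p = 0.465), and without control replicate 1 they were 0.28 and 0.09.

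The first enzyme of the set, Hmgcs1, which makes HMG-CoA, lay on the other side. It read 10.35, 10.3 and 10.07 on control arrays and 9.63, 9.56 and 10.1 on dKO arrays, so that dKO replicate 3 fell among the controls. The difference was -0.48 ± 0.19 SE and did not pass (adjusted p = 0.191). Lss, lanosterol synthase, read 9.06, 9.1 and 9.32 against 8.89, 9.02 and 8.77, and its difference of -0.26 did not pass (adjusted p = 0.352). Its probe set 1426913_at differed by -1 (adjusted p = 0.0709), but with dKO values around the upper end of the negative controls this is a bound of at least 1.96-fold. In the fit on gene means, which includes that probe set, Lss passed as lower (-0.51, limma adjusted p = 0.0279). In the 9 remaining genes the groups overlapped. Those of the mevalonate and prenyl steps had small differences: the kinases Mvk (-0.17) and Pmvk (-0.15), the isomerase Idi1 (0.19) and the farnesyl diphosphate synthase Fdps (0.07). The squalene epoxidase Sqle (0.16), the sterol reductases Tm7sf2 (0.3), Hsd17b7 (-0.23) and Dhcr7 (-0.2), and the desaturase Sc5d (0.14) completed the list, and adjusted p over these 9 genes ranged from 0.471 to 0.768 apart from Fdps (0.884). One dim Sc5d probe set, 1434520_at, passed the test in the opposite direction, from 4.06, 4.67 and 3.62 to 2.56, 3.05 and 2.96 (adjusted p = 0.0425). Its dKO values lay in the negative control range, so the fall is a bound of at least 1.15-fold.

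**Figure D2:**
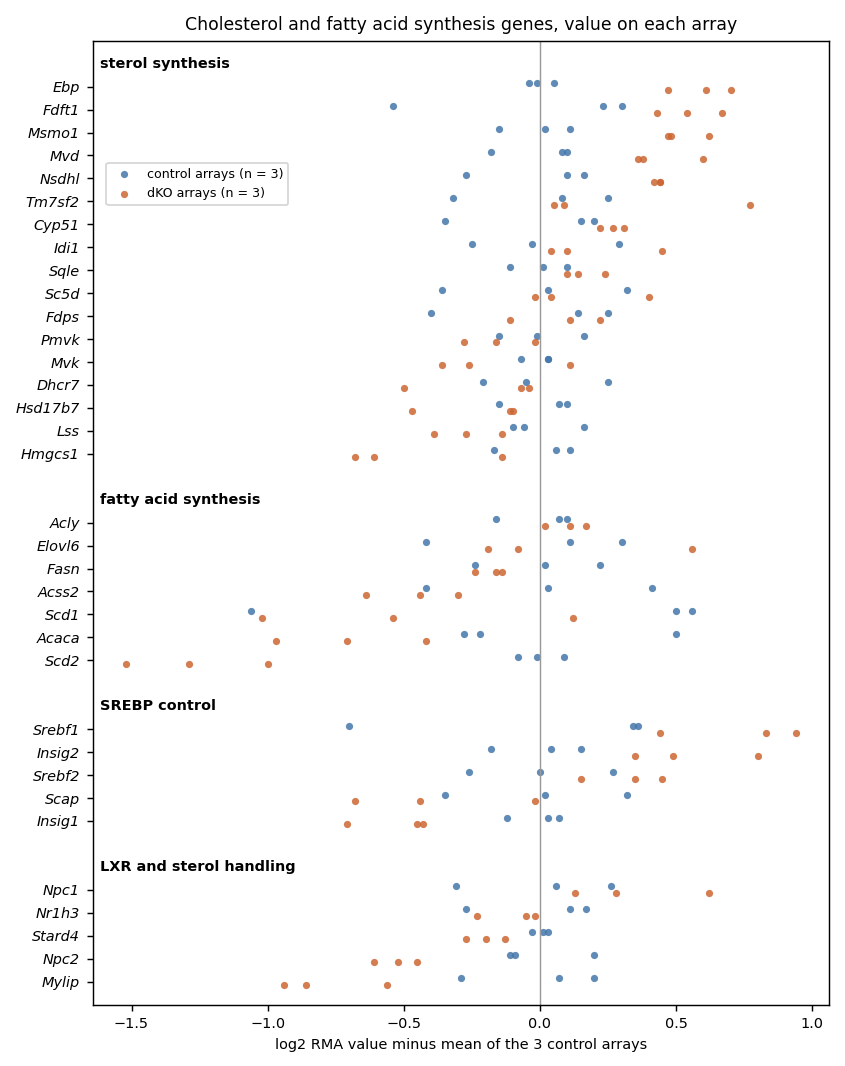
Value on each array minus the mean of the 3 control arrays (x axis, log2 RMA units) for the 34 genes by role; blue points are the 3 control pools and orange points the 3 dKO pools. The orange points of Ebp, Msmo1, Mvd and Nsdhl lie right of all blue points and those of Scd2, Insig1, Npc2 and Mylip left of them, and 1 control array stands far left for Fdft1 and Srebf1.

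SREBPs bind sterol regulatory elements near the start sites of these genes, usually beside CCAAT or GC boxes, and Myc with Max binds the E-box. Promoter windows of 250 bases before the start site (RefSeq, GRCm38.p6) were found for 27 of the 34 genes, 36 windows in all, and were searched on both strands. Scd2, Scd1, Fdps, Fdft1, Sqle, Npc1 and Stard4 had no window and were not searched. The sterol regulatory element letters TCACNCCAC stood in 1 of the 36 windows (2.78%), that of Hmgcs1, against 1.05% of 32851 windows of the same length. CCAAT stood in all 14 sterol synthesis genes with a window and in 14 of their 17 windows (82.4%), against 33.8% of all windows. The GC box GGGCGG stood in 14 of the 17 windows as well, from 13 genes (82.4%, against 32.7% of all). Both boxes were also frequent outside sterol synthesis. In the windows of the other 3 roles CCAAT stood in 47.4% and the GC box in 57.9%. In those of the other pathway genes described below the shares were 55.6% and 69.4%. The E-box CACGTG, which reads the same on both strands, stood in 5 of the 36 windows (13.9%, against 6.02%), those of Dhcr7, Hsd17b7, Sc5d, Insig1 and Scap, none of which was called. The LXR response element, taken as AGGTCA repeated after a gap of 4 bases, stood in 0 of the 36 windows and in 0.0152% of all. For every motif only the exact letters given were counted, so a sterol or LXR element that departs from them would be missed. All the counts are matches of letters and no measure of binding. Hmgcs1 was the one gene of the 27 with the exact sterol element letters in a window, and Ebp the one gene of the set that rose. Their windows are given 5′ to 3′ with the sterol element and CCAAT in capitals (ATTGG is CCAAT on the other strand). Hmgcs1 lies at chr13:119690101-119690350, plus strand, and Ebp at chrX:8193513-8193762, minus strand.
Hmgcs1: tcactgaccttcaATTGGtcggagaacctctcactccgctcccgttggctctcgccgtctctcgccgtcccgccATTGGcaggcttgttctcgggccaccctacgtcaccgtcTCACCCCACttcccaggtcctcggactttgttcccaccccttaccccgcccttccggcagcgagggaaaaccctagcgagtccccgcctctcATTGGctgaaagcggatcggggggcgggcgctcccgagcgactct
Ebp: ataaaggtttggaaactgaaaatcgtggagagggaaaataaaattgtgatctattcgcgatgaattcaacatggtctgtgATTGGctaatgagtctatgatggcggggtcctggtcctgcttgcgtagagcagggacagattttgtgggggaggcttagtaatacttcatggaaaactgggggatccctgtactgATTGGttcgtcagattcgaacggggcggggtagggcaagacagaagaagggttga
The capitals of Hmgcs1 mark the 9 letters of the sterol element, the first of them 137 bases before the start site, and 3 CCAAT boxes. Those of Ebp mark 2 CCAAT boxes.

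Fatty acid synthesis genes had the largest fall of the set, that of Scd2. Of 7, 0 rose, 1 fell and 6 did not pass. Among all genes 4.49% rose and 3.56% fell, so 1 call among 7 is no result about this role. The difference was negative in 5 of the 7. The median was -0.47, but -0.24 with the mean over each gene's probe sets, and -0.23, -0.3, -0.26 and -0.22 without control replicates 1, 2 and 3 and dKO replicate 2. Scd2 puts the first double bond into saturated fatty acids. Its brightest probe set, 1415822_at, read 10.53, 10.63 and 10.46 on control arrays and 9.54, 9.25 and 9.02 on dKO arrays, so every dKO pool was well below every control pool. Its means of 10.54 ± 0.09 and 9.27 ± 0.26 (SD, n = 3 each) make a 2.41-fold decrease (log2 difference -1.27 ± 0.17 SE, limma adjusted p = 0.00849). Both other Scd2 probe sets fell as well, 1415823_at by 1.37 and 1415824_at by 1.2 on the log2 scale (adjusted p = 0.00873 and 0.0316). The call was kept under all 15 alternatives, with adjusted p from 0.00149 to 0.0357.

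Scd1, the closest relative of Scd2, showed no such separation. It read 6.25, 6.31 and 4.69 on control arrays and 5.21, 4.73 and 5.87 on dKO arrays, with a spread inside each group wider than the distance between the group means. Its difference was -0.48 with a 95% interval from -1.61 to 0.64, which does not exclude a fall as large as that of Scd2. Whether the probes of the 2 desaturases hybridise to each other's transcripts was not tested. Acaca, the acetyl-CoA carboxylase that makes malonyl-CoA, read 8.53, 8.59 and 9.31 against 7.84, 8.39 and 8.1. These did not overlap, yet control replicate 3 stood high, and the difference of -0.7 ± 0.25 SE did not pass (adjusted p = 0.158). A second Acaca probe set, 1434185_at, differed by -0.42 (adjusted p = 0.146).

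The other fatty acid genes overlapped between groups. Acss2, which makes acetyl-CoA from acetate, differed by -0.47 ± 0.23 SE (adjusted p = 0.297), and Fasn, the fatty acid synthase, by -0.18 ± 0.16 SE (adjusted p = 0.576). Acly, which makes cytosolic acetyl-CoA from citrate, differed by 0.1 ± 0.14 SE (adjusted p = 0.744). The elongase Elovl6 also differed by 0.1 (adjusted p = 0.88), but its probe set 1442656_at had -0.7 (adjusted p = 0.107), so its sign rests on the probe set chosen.

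**Figure D3:**
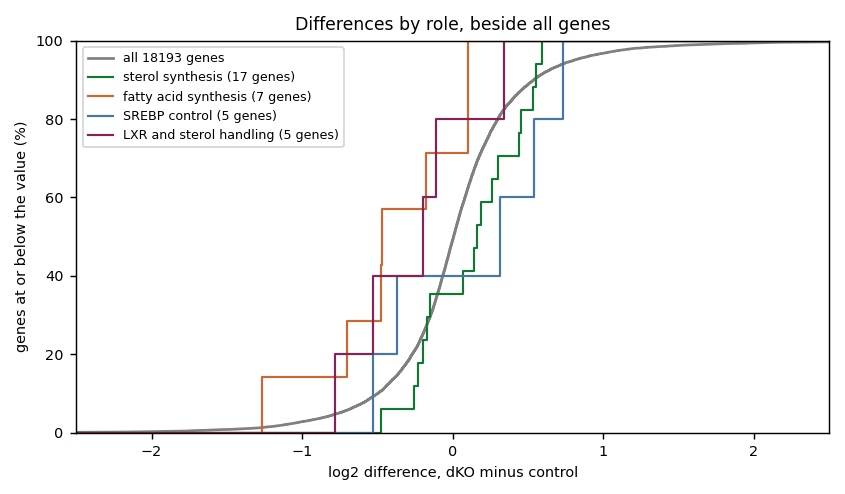
Cumulative share of genes (y axis, percent) at or below each log2 difference between dKO and control cells (x axis), for all 18193 genes in grey and for the 4 roles in colour. The curves of fatty acid synthesis and of LXR and sterol handling, with medians of -0.47 and -0.2, lie left of the grey curve over most of their range, and those of sterol synthesis and SREBP control, with medians of 0.16 and 0.31, lie mostly right of it; differences between roles were not tested.

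None of the 5 SREBP control genes passed limma's test. Among them 3, Srebf1, Insig1 and Insig2, had an unadjusted p under 0.05, as had 4196 of all 18193 genes. The median difference of the 5 genes was 0.31, but 0.15 with the mean over each gene's probe sets and 0.18 without control replicate 2. Their differences were positive in 3 and negative in 2. Insig1, which retains Scap in the endoplasmic reticulum and is itself an SREBP target, read 9.7, 9.89 and 9.85 on control arrays and 9.37, 9.39 and 9.11 on dKO arrays. All dKO arrays were lower, by -0.53 ± 0.14 SE (adjusted p = 0.0782). The difference passed with probe sets above the median level alone (adjusted p = 0.0408) and with a trended robust prior (0.0306), and after quantile normalization stood at 0.05 when rounded, just inside the threshold. Insig1 has a single probe set, so the fit on gene means left its difference as it was and changed only the features it was fitted and adjusted with (adjusted p = 0.0394). Insig2, a paralog with the same retaining function, went the other way, with 7.82, 7.93 and 7.6 against 8.13, 8.58 and 8.27 (difference 0.54 ± 0.17 SE, adjusted p = 0.114). That separation came from 1 of 3 probe sets: 1417981_at differed by 0.01 and 1417980_a_at by -0.01.

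Srebf1, which encodes the SREBP that favours fatty acid genes, read 6.38, 7.42 and 7.44 on control arrays and 7.91, 7.52 and 8.02 on dKO arrays. Control replicate 1 lay about 1 unit under the other controls, and the difference of 0.73 ± 0.31 SE did not pass (adjusted p = 0.226); without that array it was 0.38. Srebf2, whose product favours sterol genes, read 8.56, 8.3 and 8.83 against 8.91, 8.71 and 9.01, with overlap (0.31, adjusted p = 0.371). Its other probe set, 1452174_at, differed by -0.02. Scap read 7.45, 7.15 and 6.78 against 6.69, 7.11 and 6.45, with overlap (-0.37, adjusted p = 0.427). The array does not measure the cutting of SREBPs, which sets their activity.

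In the LXR and sterol handling group, Mylip fell, 0 genes rose and the other 4 of 5 missed the threshold. Among all genes 3.56% fell, so 1 fall among 5 is no result about this group. The median difference was -0.2, and -0.45 with the most variable probe set of each gene. Nr1h3, which encodes LXR alpha, read 6.53, 6.09 and 6.47 on control arrays and 6.31, 6.13 and 6.34 on dKO arrays. The groups overlapped, with a difference of -0.11 and a 95% interval from -0.49 to 0.28. Mylip, an LXR target measured by 1424988_at, read 6.24, 6.6 and 6.73 against 5.97, 5.59 and 5.67, so all dKO arrays were lower. Its fall was 1.72-fold (log2 difference -0.78 ± 0.18 SE, limma adjusted p = 0.0497), at the edge of the threshold. The call was lost in 9 of 15 alternatives, among them both other scalings and each leave-out of 1 array except control replicate 1, with adjusted p from 0.0246 to 0.141.

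Npc2 and Npc1 pass cholesterol out of lysosomes in turn, and neither passed the test by its representative probe set. Npc2 read 11.09, 11.07 and 11.38 on control arrays and 10.73, 10.66 and 10.57 on dKO arrays, all lower (difference -0.53 ± 0.14 SE, adjusted p = 0.0787). Its other probe sets had differences of -0.59, -1.42 and -0.69, none past the threshold, and in the fit on gene means, over the 4 probe sets and adjusted over 18193 genes, Npc2 passed (-0.81, adjusted p = 0.0162), as it did with a trended robust prior (0.0154) and with probe sets above the median level alone (0.0411). Npc1 read 7.71, 7.91 and 7.34 against 7.93, 8.27 and 7.78, with overlap (0.34, adjusted p = 0.399). Stard4, which carries sterol between membranes, was tight in both groups, at 10.28, 10.32 and 10.34 against 10.11, 10.04 and 10.18. The groups did not overlap, but the difference was only -0.2 (adjusted p = 0.417).

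The probe sets of a gene did not always agree in sign. The 34 genes had 77 probe sets, and 22 genes had more than 1. Of the 43 probe sets beside the representative ones, 11 in 10 genes had the opposite sign. Besides those of Sc5d, Elovl6, Msmo1, Srebf2 and Insig2, these were in Fdps (-0.04), Fdft1 (-0.13), Cyp51 (-0.17), Hsd17b7 (0.05) and Acly (-0.14 and -0.05), none of which passed the test. For the Fdps probe set and the Acly one at -0.05, both group means lay in the negative control range. Of the 11 only the Sc5d probe set passed the test. Of the 77 probe sets 1 was called higher and 5 lower, 3 of the latter for Scd2, against 6.99% of all 45037 probe sets (3.57% higher and 3.41% lower). The representative probe sets of 5 genes carry the suffix _x_at or _s_at, which marks probes shared with other transcripts.

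**Figure D4:**
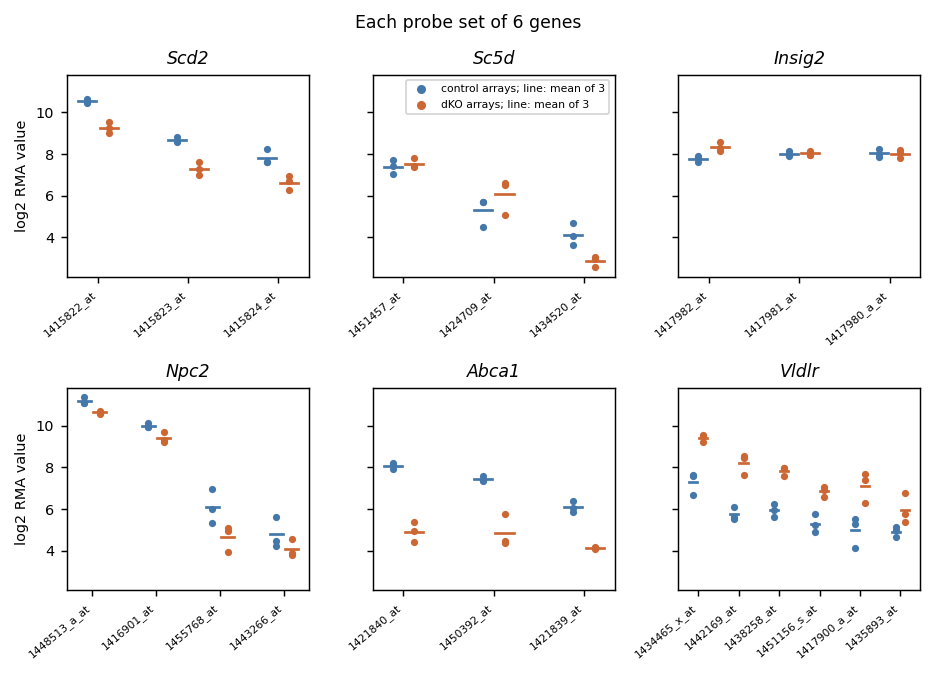
Log2 RMA values (y axis) of every probe set (x axis, highest mean first) of 6 genes; points are single arrays and lines the mean of 3. Scd2, Npc2, Abca1 and Vldlr keep the same order of group means in each of their probe sets, Sc5d does not, and Insig2 separates in 1 of 3 (difference 0.54).

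Other genes of the pathway were taken from 5 lists of 42 genes, of which 34 were measured. Of these, 1 rose, 4 fell and 29 did not pass, with a median of 0.01. With each array centred on its median 4 rose and 4 fell. The share called was 14.7%, against 8.05% of all genes and 9.22% of those above the negative controls. The lists were chosen with earlier results of these data known, so a higher share is no result about them. The calls lay in sterol uptake and storage and among LXR partners and targets. None was made among 2 further sterol synthesis genes, 6 genes of SREBP processing and turnover and 14 of fatty acid synthesis, elongation and activation. By limma 0, 2 and 5 of these had an unadjusted p under 0.05, as had 4196 of all 18193 genes.

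Of 6 LXR partners and targets, 3 fell and 0 rose, while 3 missed the threshold, and the median difference was -0.62. Among all genes 3.56% fell, but this list was chosen with earlier results of these data known, so its count is no result about it. Abca1, which exports cholesterol from cells, read 7.91, 8.22 and 8.14 on control arrays and 4.43, 4.95 and 5.36 on dKO arrays. This was the largest fall among the 34 genes of these lists, 9.04-fold (log2 difference -3.18 ± 0.24 SE, adjusted p = 0.00187), and both other probe sets fell too (log2 differences -2.58 and -1.97). Smpdl3a, a phosphodiesterase induced by LXR, read 9.39, 9.62 and 9.36 against 7.6, 7.95 and 8.02, a 3.03-fold fall (-1.6 ± 0.16 SE, adjusted p = 0.00398). Rxrb, one of the retinoid X receptors that pair with LXRs, read 8.63, 8.48 and 8.48 against 7.82, 7.91 and 7.71. Its fall of 1.64-fold (-0.71 ± 0.13 SE, adjusted p = 0.0232) was lost with any 1 array left out and with the replicate block (adjusted p up to 0.078, from 0.00905). The exporter Abcg1 differed by -0.53 (adjusted p = 0.0568), the phospholipid enzyme Lpcat3 by 0.3 and the receptor Rxra by -0.03. Macrophages also use this programme. Of their 12 markers C1qb rose (3.45-fold, adjusted p = 0.0192), C1qa and C1qc were higher and Adgre1 was lower on every dKO array without passing the test, and Mpeg1 varied most among controls (4.93, 7.71 and 7.91). The groups did not overlap for 33.3% of the 12 markers, near the 30.0% of all genes, so this count is no result about macrophages. The summed level of the 12 markers was 441 to 684 on control and 630 to 716 on dKO arrays. The part of macrophage RNA in the differences of the LXR partners and targets was not tested.

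The windows of Mylip and Abca1, both known LXR targets and both lower, are shown for comparison, with the E-box and CCAAT in capitals. Mylip lies at chr13:45389492-45389741, plus strand, and Abca1 at chr4:53159896-53160145, minus strand (RefSeq, GRCm38.p6).
Mylip: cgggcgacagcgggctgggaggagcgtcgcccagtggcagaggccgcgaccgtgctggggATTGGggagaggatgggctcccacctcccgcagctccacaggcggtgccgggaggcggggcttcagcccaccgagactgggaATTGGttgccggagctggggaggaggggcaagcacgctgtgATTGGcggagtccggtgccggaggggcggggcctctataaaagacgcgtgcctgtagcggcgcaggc
Abca1: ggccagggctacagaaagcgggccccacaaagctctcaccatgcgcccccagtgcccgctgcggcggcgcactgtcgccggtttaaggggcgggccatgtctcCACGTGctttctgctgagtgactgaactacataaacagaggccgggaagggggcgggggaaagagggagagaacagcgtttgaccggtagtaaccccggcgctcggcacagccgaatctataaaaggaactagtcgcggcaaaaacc
The Mylip window holds 3 CCAAT boxes and the Abca1 window 1 E-box, which begins 147 bases before the start site. Neither window holds the exact LXR letters searched for. Elements that depart from those letters were not searched for, so neither window is shown to lack an LXR element. Among the 36 windows of the other listed genes, 5 (13.9%) held an E-box, those of Abca1, Elovl5, Erlin1, Nceh1 and Slc25a1.

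Among 6 genes of sterol uptake, storage and transport, 1 rose and 1 fell, where 4.49% of all genes rose and 3.56% fell. Counts this small are no result about the list, which was chosen with earlier results of these data known. Vldlr, a lipoprotein receptor whose protein Mylip marks for breakdown, read 6.69, 7.59 and 7.62 on control arrays and 9.23, 9.5 and 9.57 on dKO arrays. It rose 4.38-fold (log2 difference 2.13 ± 0.27 SE, adjusted p = 0.00716), and 5 of its 6 probe sets were called higher. Nceh1, which frees cholesterol from its esters, read 9.08, 9.31 and 9.22 against 7.95, 8.34 and 8.23, a 2.04-fold fall (-1.03 ± 0.15 SE, adjusted p = 0.0124). The Abca1, Smpdl3a, Vldlr and Nceh1 calls were each kept under the 15 alternatives run, with adjusted p up to 0.0129, 0.0213, 0.0317 and 0.0484.

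**Figure D5:**
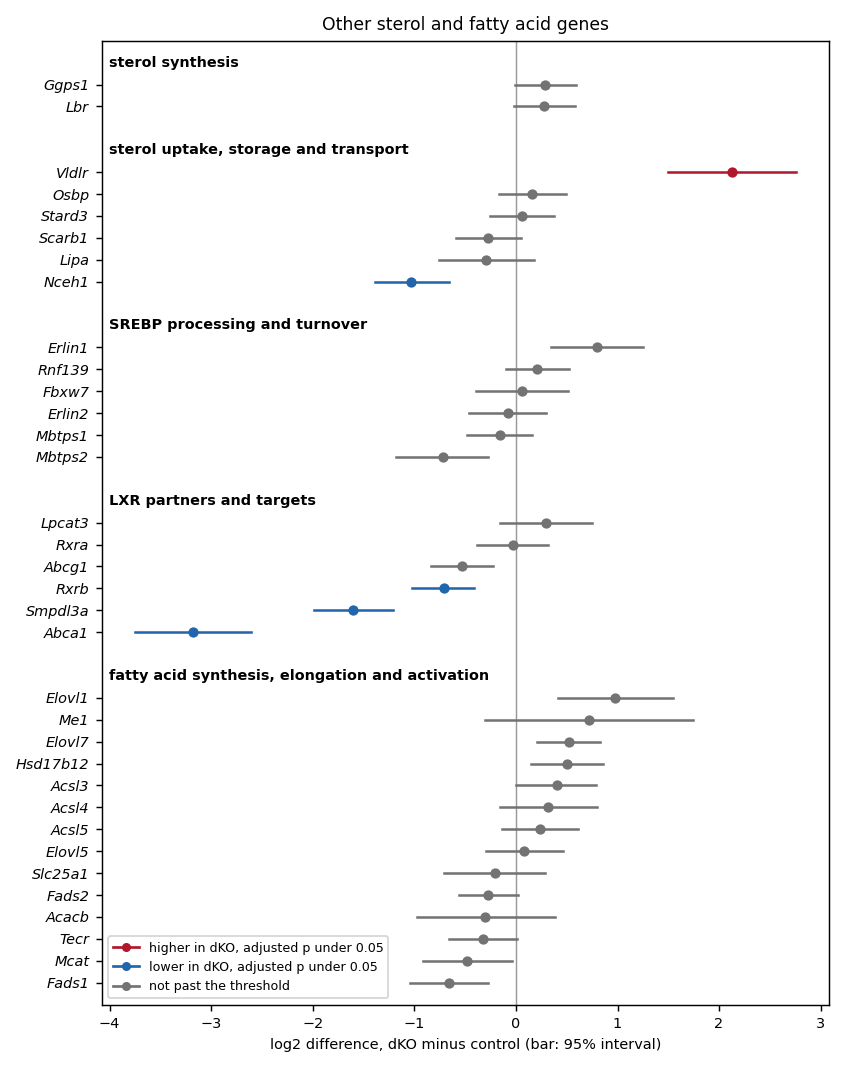
Log2 difference between dKO and control cells (x axis) with 95% intervals for the 34 other genes of the pathway by list, 3 arrays per group. Vldlr (2.13) is the one gene coloured as higher, and Abca1 (-3.18), Smpdl3a (-1.6), Nceh1 (-1.03) and Rxrb (-0.71) are coloured as lower.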

How the data were processed

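Trizol-extracted RNA of each pool went through 2 amplification rounds (NuGEN WT-Ovation Pico), per the labels' protocols, which can distort relative levels. The authors deposited log2 RMA expression values, per the submitters' processing notes and the range of the values (1.49 to 13.85) (RMA settings: not given in the sources used here). RMA scales arrays to each other, so all changes are relative. Of 45037 non-control probe sets, 34945 had 1 gene symbol, and only these were named. Each probe set was fitted with limma 3.58.1 (R 4.3.3; lmFit, eBayes; 4 residual and 3.19 prior degrees of freedom), dKO minus control, with Benjamini-Hochberg adjustment over all 45037 and a threshold of 0.05; the procedure was tested on simulated data. Fold changes are 2 to the power of the log2 difference. The negative controls were 3 bacterial probe sets absent from mouse RNA (2.13 to 3.92). The number of arrays, 3 a group, limits the precision, and p-values measure the spread between pools. All genes of the set were named, with other pathway genes past the threshold; a second probe set was named where it was called or opposed the first. The set and lists were chosen with earlier results of these data known. Alternatives were 2 scalings, a level filter, a trended robust prior, array weights, the replicate number as a block, 2 choices of probe set (gene means over probe sets were fitted and adjusted over 18193 genes) and leaving out each array; a fit on the representative probe sets alone, and all those for the other called genes, were chosen after seeing the data.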

Additional observations from a re-analysis of the deposited data

How the results depend on the processing

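The Scd2, Abca1, Smpdl3a, Vldlr and Nceh1 calls were kept in all 15 alternatives. Some alternatives changed the features tested: 22518 probe sets above the median level, 18193 gene means over probe sets, and, added after seeing the data, the 18193 representative probe sets alone, where no averaging takes place. With the last of these the 3 calls in the set became 4, the sterol synthesis count 2 and that of other pathway genes 10, so that the features fitted and adjusted with moved the counts without averaging. The 3 calls became 6 with probe sets above the median level alone and 6 with the mean over a gene's probe sets, and 1 to 2 with 1 array left out. The sterol synthesis count of 1 became 2 with each array centred on its median, 2 above the median level and 2 by probe set means, and 0 to 0 with 1 array left out. Both calls were higher with centred arrays and above the median level. By probe set means 1 was higher and 1 lower, the lower being Lss. The SREBP control count of 0 became 1 after quantile normalization, 1 above the median level, 1 with a trended robust prior and 1 by probe set means, this being Insig1, which has a single probe set. The LXR and sterol handling count of 1 became 0 with centred arrays, 0 with quantile-normalized ones, 2 above the median level, 2 by probe set means, and 0 to 1 with 1 array left out. The count of 5 among other pathway genes became 8 with centred arrays, 11 above the median level, 9 with a trended robust prior and 10 by probe set means. Across all probe sets the 3146 calls became 1338 to 1674 with 1 array left out, where fewer arrays were fitted. With the replicate block they became 1530, with 1 call left in the set, 0 in sterol synthesis and 0 in LXR and sterol handling. Deviations of arrays with the same number correlated at -0.02, 0 and 0.01, and those of arrays with unlike numbers at -0.05 to 0.05. No shared deviation by number was seen, but this cannot show whether pools of the same number were handled together. A total of 5 genes not past the threshold changed sign. With 1 array left out, the differences ranged from -0.12 to 0.2 for Fdps (-0.12 without control replicate 3, and 0, negative before rounding, without dKO replicate 3), from -0.03 to 0.31 for Sc5d and from -0.13 to 0.25 for Elovl6 (-0.11 without control replicate 3). Cyp51 (-0.17), Hsd17b7 (0.05) and Elovl6 (-0.7) changed with the most variable probe set. By probe set means Sc5d had -0.11 and Elovl6 -0.16. The cause of these changes was not tested. Signal near background limits the dim Sc5d and Scd1 probe sets.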

Other observations

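Fatty acid elongation and activation held differences that the representative probe sets did not pass, chosen here after their values were seen. Elovl1, an elongase of saturated fatty acids, had 4 probe sets, each with higher values on every dKO array. Its brightest, 1456530_x_at, read 8.34, 8.47 and 7.74 on control arrays and 9.21, 8.86 and 9.43 on dKO arrays (log2 difference 0.98 ± 0.24 SE, limma adjusted p = 0.0581), while 1425676_a_at (0.6, adjusted p = 0.0446) and 1443820_x_at (1.22, adjusted p = 0.0497) passed the threshold. Acsl4, which activates polyunsaturated fatty acids, differed by 0.32 by its brightest probe set (adjusted p = 0.431) and rose by 1.02 on 1418911_s_at (adjusted p = 0.0136), from 6.38, 6.19 and 6.39 to 7.56, 7.32 and 7.13. The suffix _s_at of this probe set, and _x_at of every Elovl1 probe set except 1425676_a_at, marks probes shared with other transcripts. Whether other transcripts added to these signals was not tested.

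Fads1, a desaturase of polyunsaturated fatty acids, read 10.62, 10.66 and 10.5 on control arrays and 9.68, 10.17 and 9.96 on dKO arrays (-0.66, adjusted p = 0.0599). Mbtps2, a protease that cuts SREBPs, read 7.82, 8.15 and 8.26 against 7.05, 7.45 and 7.56 (-0.72, adjusted p = 0.0742). Erlin1, which takes part in holding SREBPs back, read 8.07, 8.69 and 8.2 against 9, 9.12 and 9.23 (0.8, adjusted p = 0.0536). By these brightest probe sets the groups did not overlap in the 3 genes, as in 30.0% of all genes, and none passed the threshold. A second probe set of Fads1 (1440444_at, -0.17, adjusted p = 0.781) and one of Erlin1 (1441344_at, 0.02, adjusted p = 0.971) overlapped.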
